A study of Drosophila melanogaster with 12 samples.

Results

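Transcripts of 10 genes that set wing pouch and wing margin fate were followed in wing imaginal discs of Drosophila melanogaster, the epithelial sacs of the larva from which wing and dorsal thorax arise. The 10 genes were chosen by name for their known roles, as nub, vg, sd, Dll, rn, wg, ct, sens, ac and sc, among 17869 gene rows, and all 10 had a mean of at least 10 normalized counts and entered the tests with 10179 genes in all. Larvae were kept at 25 °C and dissected at the L3 stage, on day 7 after the eggs were laid, and the RNA of 150 discs was pooled in each of 12 samples. There were 3 groups with 4 samples each, which the labels name biological replicates, and every group carried the driver nub-Gal4 with the red fluorescent reporter UAS-mRFP. The first group is labelled with UAS-ecd-RNAi and Xrp1-RNAi in addition, the second with UAS-ecd-RNAi, and the control group with driver and reporter alone. The driver acts in the domain of nubbin, which covers the pouch, so each sample also holds notum, peripodial and other tissue in which RNAi was not driven. Xrp1 RNAi without ecd RNAi was not analysed here. The protein encoded by ecd acts with the splicing factor Prp8, and the product of Xrp1 is a transcription factor of the stress response, so the comparisons ask how wing fate transcripts stand with ecd RNAi and with both.

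The pouch is the central part of the disc that gives rise to the wing blade. Vestigial binds the DNA-binding protein Scalloped, and this pair acts as the selector of wing identity, while Nubbin and Rotund are transcription factors that mark the pouch and its distal part. Along the border of dorsal and ventral compartments, Notch signalling turns on wg, which encodes a secreted Wnt ligand, and ct, which encodes a homeodomain protein of the margin. Wg signalling in turn acts on the homeobox gene Dll and on the proneural genes ac and sc, whose products let cells become sensory organ precursors, and on sens, whose zinc-finger protein strengthens proneural activity in those precursors.

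Values are normalized counts, which the authors put on a common scale for the 12 libraries, and they summed to 29.1 M to 32.3 M with ecd plus Xrp1 RNAi, 32.4 M to 35.4 M with ecd RNAi and 26.5 M to 29.0 M in the controls. Xrp1 stood at 4447 to 6048 normalized counts with ecd plus Xrp1 RNAi, at 18985 to 22964 with ecd RNAi and at 4511 to 5078 in the controls. The transcript of ecd stood at 1696 to 1825 with ecd plus Xrp1 RNAi, 1423 to 1982 with ecd RNAi and 1420 to 1654 in the controls, so it was not lower in the libraries labelled with its RNAi, and the 2 RNAi groups are taken as labelled. Fat body markers summed to 3004 to 4110 with ecd plus Xrp1 RNAi, 2284 to 29698 with ecd RNAi and 2516 to 77614 in the controls, where replicates 3 and 4 of the last 2 groups were the libraries rich in them. The pouch genes nub, vg, sd and rn were detected in every library, at 2787 normalized counts or more. In whole discs, fewer cells of a type and less RNA per cell cannot be told apart.

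Of the 10 genes, 7 fell with ecd RNAi against control: sens, sc, Dll, ac, ct, nub and sd. The genes sens and sc fell furthest, sens to 0.110 of the control level and sc to 0.486 of it, while vg, rn and wg did not pass. The changes were called with limma on log2(normalized count + 1) at a Benjamini-Hochberg adjusted p under 0.05 over all tested genes. By that rule 47.8% of all tested genes passed in this comparison, 25.4% as lower and 22.4% as higher, and the median log2 change was -0.37 over the 10 genes and -0.04 over all. The values of the ecd RNAi and control libraries did not overlap for 6 of the 10 genes, a pattern seen in 44.7% of tested genes. Leaving out the 4 libraries rich in fat body transcripts, 4 of the 10 passed, namely sens, sc, Dll and ac, where 42.4% of all tested genes did and 22.2% as lower. On the log2 scale the change was then -0.36 for ct (adjusted p = 0.0733 in limma), -0.18 for sd (adjusted p = 0.117) and -0.20 for nub (adjusted p = 0.0891), against -0.42, -0.22 and -0.32 with all libraries, so that nub moved by over 1.5 times and ct and sd did not.

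Relative to ecd RNAi, 7 of the 10 rose with ecd plus Xrp1 RNAi: sens, sc, Dll, ct, ac, vg and sd. The share called was 47.3% of all tested genes, with 26.7% higher and 20.6% lower, and the median log2 change was 0.45 over the 10 genes and -0.01 over all. The 2 groups' values were apart for each of these 7 genes, as they were for 43.7% of all tested genes. The ecd RNAi libraries enter both comparisons, so a high or low value in them moves both changes in opposite directions. Leaving out the same 4 libraries, 6 of the 10 rose, where 42.7% of all tested genes passed and 21.8% as higher, and the log2 change of sd was 0.21 (adjusted p = 0.0511 in limma), against 0.27 with all libraries.

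Between ecd plus Xrp1 RNAi and control, only vg of the 10 genes passed in limma, and it was higher with ecd plus Xrp1 RNAi. The share called was 4.39% of all tested genes, 2.29% higher and 2.1% lower, and the median log2 change was -0.02 over the 10 genes and 0.00 over all. With libraries scaled to equal sums outside ribosomal RNA, the split of all calls was 207 higher and 372 lower, in place of 233 and 214. For vg and sens the values of the 2 groups lay apart, as they did for 16.9% of tested genes. In the authors' deposited table, made with DESeq2, a count of 2 of the 10 passed, vg and sens, where 9.52% of genes with an adjusted p did. The same table called 7 of the 10 with ecd RNAi against control, where 39.6% of its genes passed, and 7 with ecd plus Xrp1 RNAi relative to ecd RNAi, where 42.2% passed.

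**Figure D1:**
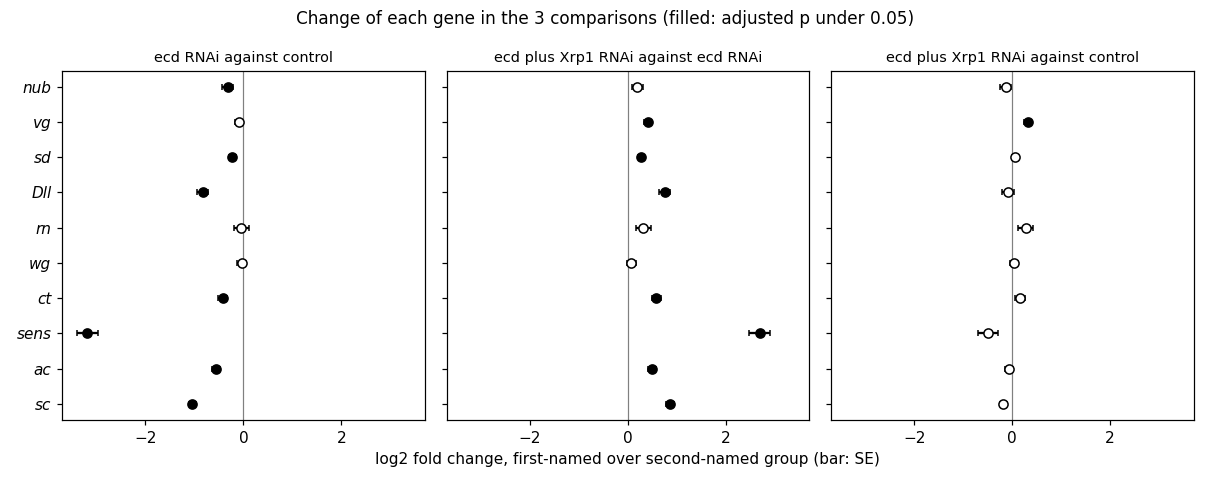
Log2 change of each of the 10 genes (horizontal axis, with SE as bar) in the 3 comparisons from limma, filled where the adjusted p is under 0.05. The change of sens is -3.18 with ecd RNAi against control and 2.69 with ecd plus Xrp1 RNAi relative to ecd RNAi, while vg alone is filled between ecd plus Xrp1 RNAi and control.

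The gene sens (FBgn0002573, chromosome 3L, 13396228 to 13401125, minus strand, 4 exons, BDGP6, the build of every position here) had the largest change among the 10. Its level was 152, 127, 148 and 167 normalized counts in the 4 libraries with ecd plus Xrp1 RNAi, 35.7, 18.1, 18.5 and 19.7 with ecd RNAi, and 213, 206, 238 and 181 in the controls. All 4 ecd RNAi libraries lie far below the other 8, and replicate 1 is the highest among them. In limma the log2 change was -3.18 ± 0.21 (SE) with ecd RNAi against control, with an adjusted p of 8.4e-08, and 45 of the 10179 tested genes had a lower one. With ecd plus Xrp1 RNAi relative to ecd RNAi it was 2.69 ± 0.21, with an adjusted p of 4.9e-07. The libraries with ecd plus Xrp1 RNAi all lie below the lowest control, but the log2 change of -0.49 ± 0.21 against control did not pass over all genes, with an adjusted p of 0.197 in limma, and its adjusted p was 0.0477 in the authors' deposited table.

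The proneural genes ac and sc lie near each other on the X chromosome and each has 1 exon. sc (FBgn0004170, X, 396060 to 397497, plus strand) stood at 791, 707, 672 and 708 normalized counts with ecd plus Xrp1 RNAi, at 389, 410, 353 and 430 with ecd RNAi, against 824, 797, 852 and 781 in controls. Every ecd RNAi library was below every other library, and the highest of the ecd plus Xrp1 RNAi libraries lay within the range of the controls. The log2 change was -1.04 ± 0.07 with ecd RNAi against control (adjusted p = 2.0e-07) and 0.86 ± 0.07 with ecd plus Xrp1 RNAi relative to ecd RNAi (adjusted p = 1.3e-06). Between ecd plus Xrp1 RNAi and control it was -0.18 ± 0.07 and did not pass (adjusted p = 0.196).

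ac (FBgn0000022, X, 370031 to 370947, plus strand) stood at 365, 364, 399 and 407 normalized counts with ecd plus Xrp1 RNAi, at 258, 292, 282 and 255 with ecd RNAi, against 424, 373, 421 and 393 in controls. The ecd RNAi libraries again lay below all others, while those with ecd plus Xrp1 RNAi overlapped the controls. The fall with ecd RNAi against control was -0.57 ± 0.08 (adjusted p = 6.9e-05), with a 95% interval of -0.74 to -0.39 where that of sc was -1.20 to -0.88, and the rise with ecd plus Xrp1 RNAi relative to ecd RNAi was 0.50 ± 0.08 (adjusted p = 2.2e-04). Both genes lie within the span of CG32816 on the opposite strand without overlap of exons, and that gene averaged 196 normalized counts.

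The 3 sensory organ genes differed in how far they stood apart within a library. The ratio of sc to ac was 2.17, 1.94, 1.68 and 1.74 with ecd plus Xrp1 RNAi, 1.51, 1.40, 1.25 and 1.69 with ecd RNAi, and 1.94, 2.13, 2.03 and 1.99 in the controls, so that each ecd RNAi library was below each control. The ratio of sens to sc averaged 0.207 ± 0.026 with ecd plus Xrp1 RNAi, 0.0585 ± 0.022 with ecd RNAi and 0.257 ± 0.020 in the controls (SD, n = 4 each). These ratios are given as a description, with no test.

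**Figure D2:**
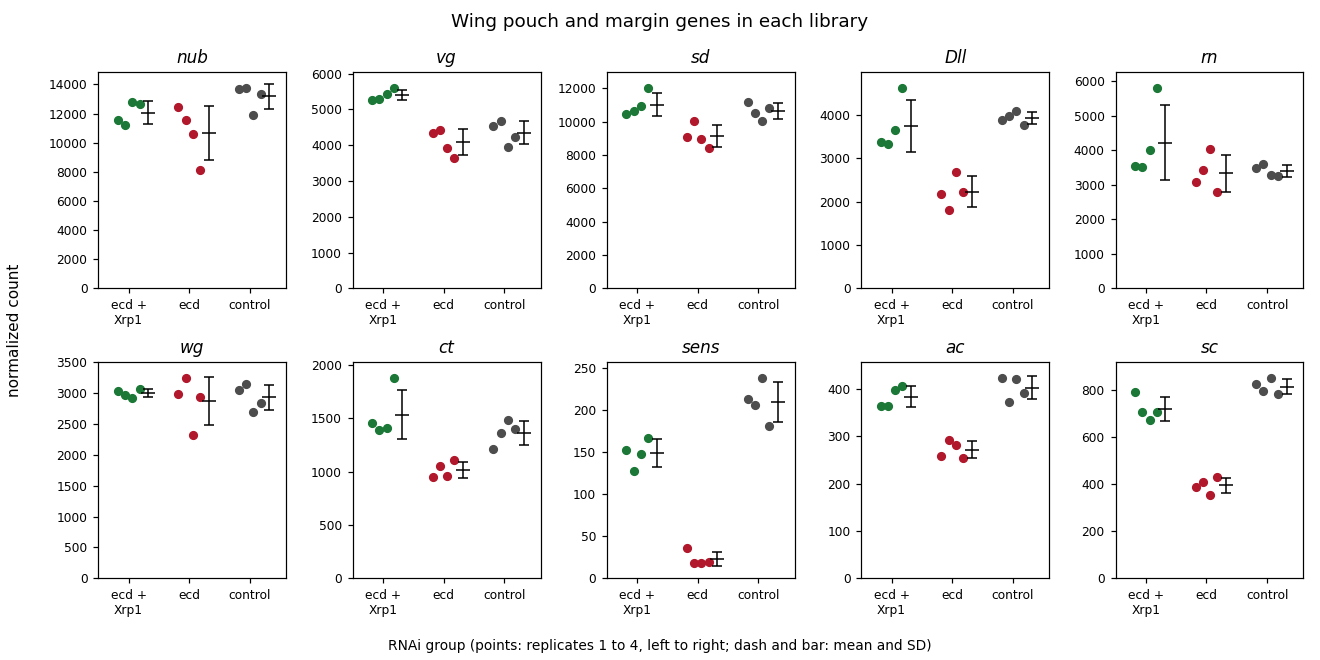
Normalized counts of the 10 genes (vertical axes, each from 0) in every library, with mean and SD at the side, for ecd plus Xrp1 RNAi, ecd RNAi and control. The ecd RNAi libraries of sens lie between 18.1 and 35.7 and those of sc between 353 and 430, below all others, while the 3 groups of wg overlap.

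Among the genes of the dorso-ventral margin, the ligand gene wg did not pass in limma in any comparison, while Dll and ct passed in both comparisons that hold the ecd RNAi libraries. The differences between these genes were not tested. wg (FBgn0284084, 2L, 7307159 to 7316265, plus strand) stood at 3041, 2976, 2923 and 3066 normalized counts with ecd plus Xrp1 RNAi, at 2987, 3253, 2324 and 2945 with ecd RNAi, against 3055, 3152, 2696 and 2840 in controls. The 3 groups overlap, and ecd RNAi replicate 3 is the lowest library. The log2 change with ecd RNAi against control was -0.04 ± 0.09 (adjusted p = 0.764), with a 95% interval of -0.23 to 0.15. With ecd plus Xrp1 RNAi the change was 0.07 against ecd RNAi, with an interval of -0.12 to 0.26, and 0.03 against control, with an interval of -0.16 to 0.23. The sign of these small changes turned under some processing choices, and no choice made them pass.

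Dll (FBgn0000157, 2R, 24814822 to 24835667, plus strand), which encodes a homeodomain factor of distal appendages, fell most among the genes outside the sensory organ group. It stood at 3365, 3332, 3645 and 4616 normalized counts with ecd plus Xrp1 RNAi, at 2184, 1804, 2673 and 2229 with ecd RNAi, against 3874, 3976, 4085 and 3772 in controls. The ecd RNAi libraries lay below all others, and ecd plus Xrp1 RNAi replicate 4 lay above the controls while the other 3 lay below. The log2 change was -0.83 ± 0.12 with ecd RNAi against control (adjusted p = 6.8e-05) and 0.75 ± 0.12 with ecd plus Xrp1 RNAi relative to ecd RNAi (adjusted p = 1.8e-04). Against control it was -0.08 ± 0.12 with ecd plus Xrp1 RNAi (adjusted p = 0.711).

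ct (FBgn0004198, X, 7608428 to 7678859, plus strand) stood at 1456, 1395, 1409 and 1880 normalized counts with ecd plus Xrp1 RNAi, at 951, 1053, 960 and 1104 with ecd RNAi, against 1215, 1361, 1480 and 1401 in controls. No ecd RNAi library reached a control, and ecd plus Xrp1 RNAi replicate 4 was above every other library. The log2 change was -0.42 ± 0.10 with ecd RNAi against control (adjusted p = 0.00305) and 0.59 ± 0.10 with ecd plus Xrp1 RNAi relative to ecd RNAi (adjusted p = 3.1e-04). Against control the change with ecd plus Xrp1 RNAi was 0.16 ± 0.10 (adjusted p = 0.348).

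The pouch genes had log2 changes between -0.32 and -0.04 with ecd RNAi against control. Of the pair vg and sd, sd passed there and vg did not, and the difference between them was not tested. vg (FBgn0003975, 2R, 12884201 to 12899385, plus strand) stood at 5275, 5296, 5440 and 5603 normalized counts with ecd plus Xrp1 RNAi, at 4338, 4433, 3925 and 3656 with ecd RNAi, against 4541, 4687, 3959 and 4222 in controls. The 4 libraries with ecd plus Xrp1 RNAi were above all 8 others, and the ecd RNAi and control libraries overlapped. The log2 change with ecd RNAi against control was -0.09 ± 0.07 (adjusted p = 0.311), with a 95% interval of -0.24 to 0.06. With ecd plus Xrp1 RNAi the level was higher by 0.41 ± 0.07 than with ecd RNAi (adjusted p = 3.9e-04) and by 0.31 ± 0.07 than in control (adjusted p = 0.0242). The call against control was lost without control replicate 3 or 4 or without ecd plus Xrp1 RNAi replicate 2, 3 or 4, where the adjusted p ran between 0.0519 and 0.0751. Over all libraries left out in turn the change ran between 0.27 and 0.35.

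sd (FBgn0003345, X, 15804370 to 15827682, plus strand), which encodes the TEAD-family partner of Vestigial, stood at 10489, 10644, 10936 and 12028 normalized counts with ecd plus Xrp1 RNAi, at 9092, 10016, 8966 and 8438 with ecd RNAi, against 11175, 10498, 10052 and 10829 in controls. The ecd RNAi libraries lay below all others by a small margin, with replicate 2 just under the lowest control. The log2 change was -0.22 ± 0.07 with ecd RNAi against control (adjusted p = 0.0125), 0.27 ± 0.07 with ecd plus Xrp1 RNAi relative to ecd RNAi (adjusted p = 0.00387) and 0.05 ± 0.07 with ecd plus Xrp1 RNAi against control (adjusted p = 0.681). Within each library the ratio of vg to sd averaged 0.491 ± 0.017 with ecd plus Xrp1 RNAi, 0.448 ± 0.020 with ecd RNAi and 0.409 ± 0.026 in the controls (SD, n = 4 each, no test).

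nub (FBgn0085424, 2L, 12587625 to 12628135, plus strand), which encodes a POU-domain factor and names the driver's domain, stood at 11561, 11186, 12759 and 12685 normalized counts with ecd plus Xrp1 RNAi, at 12434, 11545, 10575 and 8159 with ecd RNAi, against 13697, 13760, 11917 and 13354 in controls. The ecd RNAi and control libraries overlapped, and ecd RNAi replicate 4 was the lowest of the 12. The log2 change was -0.32 ± 0.11 with ecd RNAi against control (adjusted p = 0.0302), 0.19 ± 0.11 with ecd plus Xrp1 RNAi relative to ecd RNAi (adjusted p = 0.179) and -0.13 ± 0.11 with ecd plus Xrp1 RNAi against control (adjusted p = 0.515). The first of these was lost when any of 5 libraries was left out, namely control replicate 1, 2 or 4 or ecd RNAi replicate 3 or 4, with an adjusted p of 0.0511 to 0.0737, and without ecd RNAi replicate 4 the change was -0.20. It was also lost with only the ecd RNAi and control groups in the fit, with an adjusted p of 0.0589. Leaving out the 4 control and ecd RNAi libraries poor in fat body transcripts, nub rose with ecd plus Xrp1 RNAi relative to ecd RNAi, with a log2 change of 0.37 (adjusted p = 0.0222), an alternative tried after the values were seen. In that setting 57.3% of all tested genes passed, 29.8% as higher.

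rn (FBgn0267337, 3R, 7272617 to 7309629, minus strand), which encodes a zinc-finger factor, stood at 3544, 3509, 4017 and 5814 normalized counts with ecd plus Xrp1 RNAi, at 3086, 3446, 4040 and 2787 with ecd RNAi, against 3479, 3618, 3284 and 3265 in controls. The 3 groups overlapped and ecd plus Xrp1 RNAi replicate 4 stood apart as the highest. The log2 change was -0.04 ± 0.15 with ecd RNAi against control (adjusted p = 0.840), with an interval of -0.37 to 0.28, and 0.32 ± 0.15 with ecd plus Xrp1 RNAi relative to ecd RNAi (adjusted p = 0.0955). Against control it was 0.28 ± 0.15 with ecd plus Xrp1 RNAi (adjusted p = 0.295). Without ecd RNAi replicate 3, rn passed with ecd plus Xrp1 RNAi relative to ecd RNAi (adjusted p = 0.0391).

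Single libraries were often the highest or lowest of their group across the 10 genes. The same counts were not made over all tested genes, so they are not read as particular to the 10. Replicate 4 was the highest of the ecd plus Xrp1 RNAi group for 8 of the 10, and its ribosomal RNA rows held 28.7% of the signal, against 20.2% to 22.7% in the rest of that group. Replicate 2 was the lowest of that group for 6 of the 10. In the ecd RNAi group, replicate 4 was the lowest for nub, vg, sd, rn and ac. Replicate 3 of that group also had 28.7% of its signal in ribosomal RNA rows. It was the highest of its group for Dll and rn and the lowest for wg and sc. The part of ribosomal RNA content in these values was not tested.

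**Figure D3:**
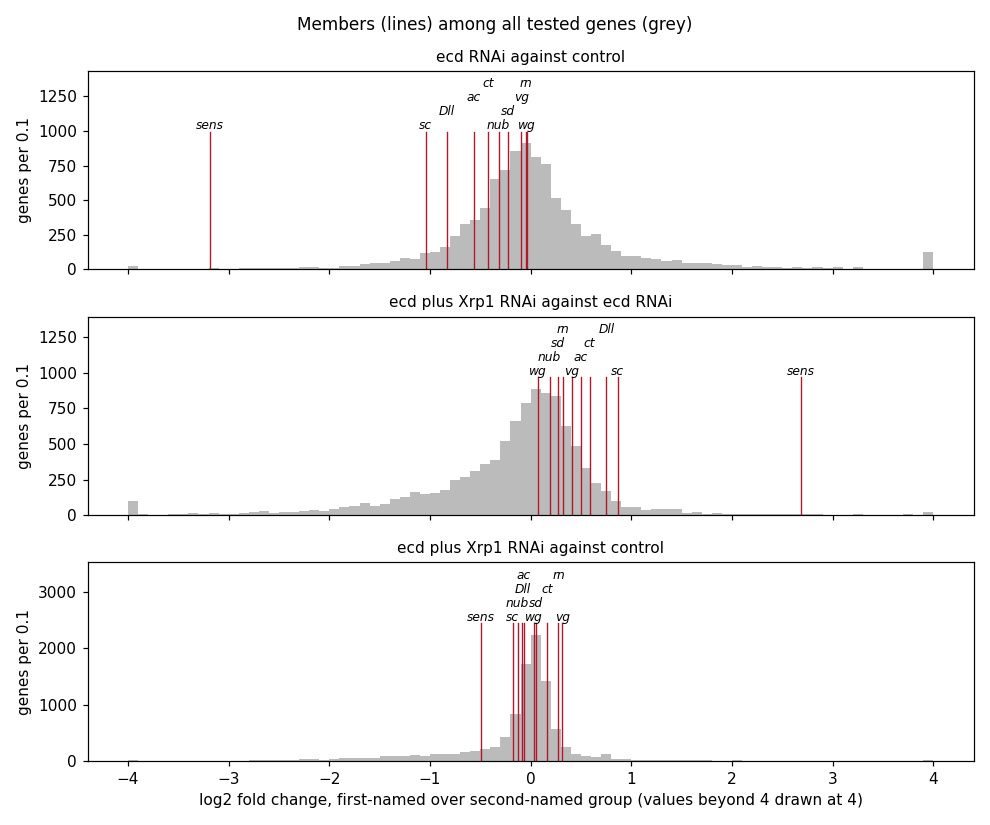
Distribution of log2 changes over the 10179 tested genes (horizontal axis) in each comparison, with number of genes on the vertical axis and the 10 genes marked. With ecd RNAi against control, sens at -3.18 lies in the lower tail beyond the 5th percentile of -1.17, while the median of all genes is -0.04.

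Levels per kb of exon put nub first and sens last in every group. In the ecd plus Xrp1 RNAi libraries the order was nub at 2283 normalized counts per kb, then vg at 1388, sd at 1258, Dll at 1130, wg at 1028, rn at 673, sc at 500.5, ac at 419, ct at 123 and sens at 60.6. Neighbours from vg through wg overlapped in their libraries and the other neighbours did not. In the ecd RNAi libraries the order was nub at 2023 per kb, vg at 1050, sd at 1041, wg at 986, Dll at 672, rn at 532, ac at 296, sc at 275, ct at 81.7 and sens at 9.38. Neighbours from vg through rn overlapped there, as did ac and sc. In the controls the order was nub at 2498 per kb, sd at 1214, Dll at 1187, vg at 1118, wg at 1006, sc at 566, rn at 544, ac at 439, ct at 110 and sens at 85.5. Neighbours from sd through wg overlapped, as did sc and rn. Dll thus held rank 4 with ecd plus Xrp1 RNAi, rank 5 with ecd RNAi and rank 3 in the controls, and ac stood above sc per kb only in the ecd RNAi group.

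Set against nub in the same library, a measure that takes the pouch transcript as its base, sens was 1.23% ± 0.097 of the nub level with ecd plus Xrp1 RNAi, 0.215% ± 0.060 with ecd RNAi and 1.60% ± 0.28 in the controls (SD, n = 4 each). For sc the share was 5.27% to 6.84% of nub with ecd plus Xrp1 RNAi, 3.13% to 5.26% with ecd RNAi and 5.79% to 7.15% in the controls. Neither gene's ecd RNAi libraries overlapped the controls on this scale. Dll was 31.0% ± 3.7 of nub with ecd plus Xrp1 RNAi, 21.4% ± 5.7 with ecd RNAi and 29.9% ± 2.9 in the controls, also without overlap between ecd RNAi and control. vg was 44.9% ± 2.0 of nub with ecd plus Xrp1 RNAi, 38.8% ± 4.3 with ecd RNAi and 33.0% ± 1.0 in the controls, so that relative to nub each ecd RNAi library was above each control. For ac the ecd RNAi libraries ran between 2.08% and 3.12% of nub and the controls between 2.71% and 3.53%, which overlap, and sd, rn, wg and ct overlapped between ecd RNAi and control as well. These shares carry the spread of nub, whose ecd RNAi replicate 4 was low, and have no test.

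**Figure D4:**
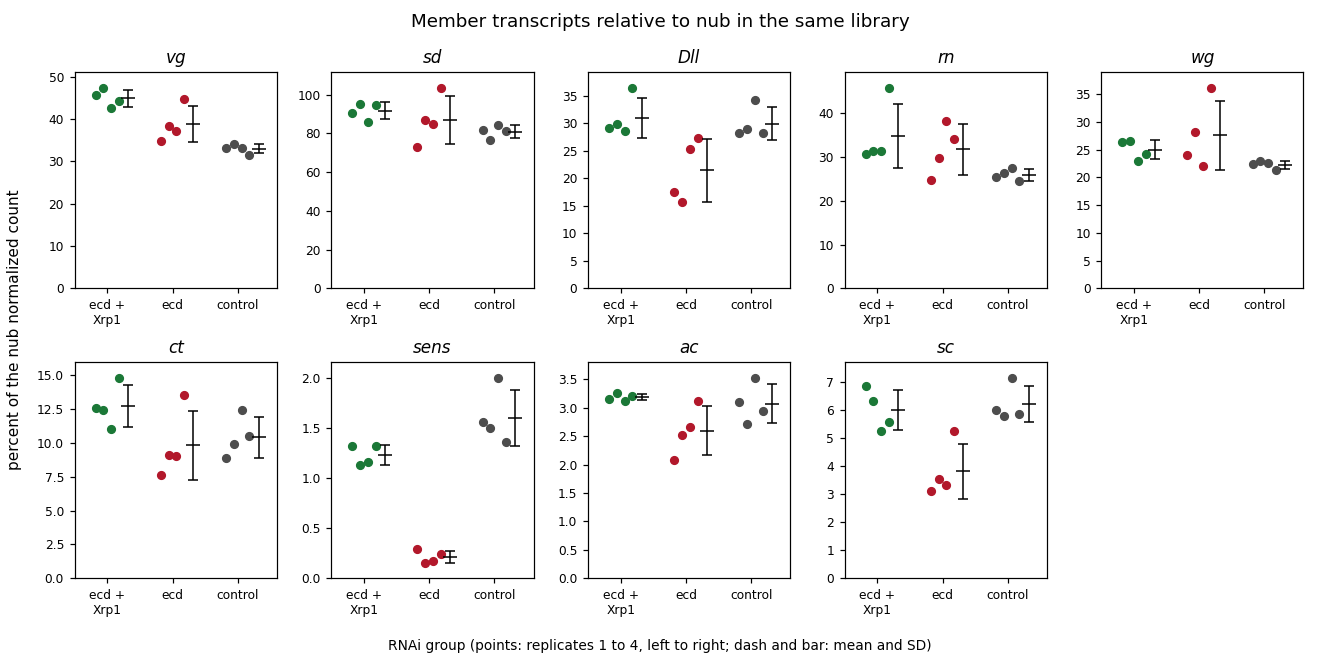
Normalized count of 9 genes as a percent of nub in the same library (vertical axes, each from 0), with mean and SD, for ecd plus Xrp1 RNAi, ecd RNAi and control. The sens share is 0.156% to 0.287% with ecd RNAi and 1.35% to 2.00% in the controls, while that of vg is 34.9% to 44.8% with ecd RNAi and 31.6% to 34.1% in the controls.

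Splicing of these transcripts was described from the authors' deposited table of intron retention ratios, which gives a mean per group. It lists 29 introns in 5 of the 10 genes, with 5 in nub, 7 in vg, 6 in Dll, 8 in rn and 3 in wg, while ac and sc have 1 exon each and so no intron, and introns of sd, ct and sens were not analysed here. Of the 29, 13 (44.8%) had a higher ratio with ecd RNAi than in control, against 64.0% of all 17817 introns listed. With ecd RNAi against control, 1 of the 29 passed in the authors' deposited table, where 2.32% of all introns did. It was the third intron of vg (chromosome 2R, 12891947 to 12892673, BDGP6, 727 nt), and its mean ratio was 0.0680 with ecd plus Xrp1 RNAi, 0.0227 with ecd RNAi and 0.0964 in the controls. Retention of this intron was thus lowest with ecd RNAi, with an adjusted p of 2.3e-05 against control in the authors' deposited table. That table also called it higher with ecd plus Xrp1 RNAi than with ecd RNAi (adjusted p = 0.0190), where 0.208% of all introns passed. Between ecd plus Xrp1 RNAi and control its adjusted p there was 0.573, where 1.26% of introns passed.

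The other introns of vg showed no common direction. Its second intron had a mean ratio of 0.0885 with ecd plus Xrp1 RNAi, 0.101 with ecd RNAi and 0.0907 in the controls, and its first 0.0479, 0.0257 and 0.0361 in the same order of groups. In rn, all 8 listed introns had a lower mean ratio with ecd RNAi than in control, for example 0.0970 with ecd RNAi and 0.202 in control for an intron of 244 nt and 0.240 with ecd RNAi and 0.367 in control for one of 1974 nt. Their adjusted p in the authors' deposited table was at least 0.270 with ecd RNAi against control. That table classes every listed rn intron as having antisense features over or near it, except those of 4832 and 1253 nt. The part of antisense reads in these ratios was not tested. The values are group means of the authors, so no spread between libraries is given.

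**Figure D5:**
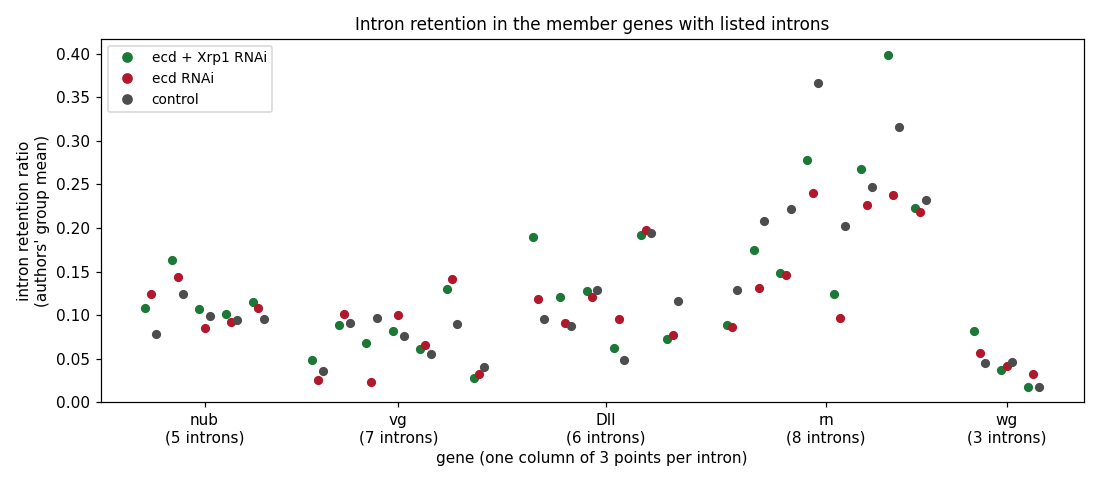
Intron retention ratio (vertical axis, the authors' group means, fraction) of the 29 listed introns, grouped by gene along the horizontal axis, with 3 points per intron for ecd plus Xrp1 RNAi, ecd RNAi and control. The third intron of vg has 0.0227 with ecd RNAi and 0.0964 in control.

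Other regulators of the pouch and distal wing moved in both directions with ecd RNAi against control. Of 16 tested, 11 fell and 3 rose, with a median log2 change of -0.40. Over all tested genes 25.4% fell and 22.4% rose, shares to be set beside the lists below as well. Fallen most were bs, which encodes the serum response factor of intervein cells, at 877 ± 134 normalized counts with ecd RNAi and 3720 ± 334 in control (SD, n = 4 each), and Optix, a homeobox gene, at 65.8 ± 20.2 and 265 ± 24 in the same order. The Spalt genes salr and salm, which pattern the pouch along its anterior-posterior axis, rose by 0.37 and 0.35 on the log2 scale (adjusted p = 0.00444 and 0.00346 in limma). Of the 16, 9 rose and 1 fell with ecd plus Xrp1 RNAi relative to ecd RNAi, where 26.7% of all tested genes rose and 20.6% fell. bs was higher by 1.84 and Optix by 1.80 there, and fj, which encodes a Golgi kinase of growth control, was lower by 0.29 (adjusted p = 0.00159). Between ecd plus Xrp1 RNAi and control 1 of the 16 passed, where 4.39% of all tested genes did. It was kn, at 669 ± 88 normalized counts with ecd plus Xrp1 RNAi and 873 ± 58 in control (adjusted p = 0.0390). The call of kn was lost in 13 of 25 alternatives, 8 of which left out 1 library, with an adjusted p of up to 0.120, and its log2 change ran between -0.51 and -0.32 over the 25.

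In the Wg signalling pathway, 8 of 28 tested genes fell and 7 rose with ecd RNAi against control, with a median of -0.04. The Wnt ligand genes Wnt4 and Wnt2 fell, with log2 changes of -1.57 and -1.47, Wnt4 to 123 ± 41 normalized counts with ecd RNAi, against 353 ± 26 in control. The genes dlp, which encodes a glypican that binds Wg, and Swim, which encodes a secreted Wg-interacting protein, rose. dlp stood at 8404 ± 522 normalized counts with ecd RNAi and 4835 ± 80 in control, and Swim at 2895 ± 88 with ecd RNAi and 186 ± 85 in control, a log2 change of 4.05 ± 0.23 (adjusted p = 2.2e-08). Relative to ecd RNAi, 10 of the 28 rose and 6 fell with ecd plus Xrp1 RNAi, and Swim was lower by 4.59 on the log2 scale, at 121 ± 21 normalized counts with ecd plus Xrp1 RNAi. Wnt2 alone passed between ecd plus Xrp1 RNAi and control, where 4.39% of all tested genes did. Its log2 change was -0.41 (adjusted p = 0.0451). That call was lost in 13 of 25 alternatives, 8 of which left out 1 library, with an adjusted p of up to 0.139, and the log2 change of Wnt2 ran between -0.48 and -0.34 over the 25.

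Of 16 tested regulators of the dorso-ventral boundary, 6 fell and 3 rose with ecd RNAi against control. With ecd plus Xrp1 RNAi relative to ecd RNAi 6 rose and 3 fell, where 26.7% of all tested genes rose and 20.6% fell. Part of this list, ara among it, is also in the list of pouch and distal wing regulators, so their counts are not separate. The Notch co-activator gene mam stood at 6355 ± 1207 normalized counts with ecd plus Xrp1 RNAi, 3790 ± 242 with ecd RNAi and 6623 ± 396 in control. The Iroquois gene ara fell by 0.65 with ecd RNAi against control on the log2 scale (adjusted p = 2.7e-05), and E(spl)mdelta-HLH, a Notch target, rose by 0.46 (adjusted p = 0.00109).

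A list of other proneural and sensory organ genes gave 9 falls and 7 rises among 28 tested genes with ecd RNAi against control and a median log2 change of -0.07. chn, which encodes a zinc-finger factor that promotes achaete-scute expression, stood at 6632 ± 582 normalized counts with ecd RNAi and 2948 ± 65 in control, a log2 change of 1.17 ± 0.07 (adjusted p = 3.8e-08). Brd, a Bearded-family gene of Notch signalling, rose by 0.78 (adjusted p = 6.3e-05). E(spl)m2-BFM of the same family had a log2 change of -1.01 and peb, a zinc-finger gene, of -0.89, and both fell. Adding Xrp1 RNAi to ecd RNAi gave 10 rises and 6 falls in the list, where 26.7% of all tested genes rose and 20.6% fell. Among them were chn with a log2 change of -0.97 (adjusted p = 2.7e-07) and E(spl)m2-BFM with 0.89 (adjusted p = 1.4e-05). Chosen after their values were seen are neur and ase. The gene neur, of sensory precursors, rose with ecd RNAi against control by 0.60 (adjusted p = 1.8e-05). ase, a gene of the achaete-scute complex, stood at 9.47 ± 9.72 normalized counts with ecd RNAi and 30.5 ± 7.3 in control (adjusted p = 0.0211). The ecd RNAi mean of ase is below 10, the low filter that was applied to the mean of all libraries.

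Of 9 tested partners and outputs of Vestigial, Scalloped and the Hippo pathway, 4 rose and 2 fell with ecd RNAi against control, with a median of 0.04. Myc, a growth regulator, rose by 0.75 (adjusted p = 1.8e-06) and kibra, an upstream regulator of Hippo signalling, by 0.77 (adjusted p = 0.00115). Of the 9, 3 rose and 2 fell with ecd plus Xrp1 RNAi relative to ecd RNAi, where 26.7% of all tested genes rose and 20.6% fell. Diap1, which encodes a caspase inhibitor, was among the risers with a log2 change of 0.38, and Myc fell, with a change of -0.76.

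Markers of neighbouring tissue were counted in the same way. Over all tested genes 25.4% fell and 22.4% rose with ecd RNAi against control. Of 10 notum markers 5 fell with ecd RNAi against control, and they summed to 19660 to 23276 normalized counts with ecd plus Xrp1 RNAi, 14169 to 17522 with ecd RNAi and 17431 to 20277 in the controls. Some notum markers, ara among them, are also counted in the lists above. Of 11 markers of adult muscle precursors 6 fell and 2 rose, with sums of 19022 to 21558 with ecd plus Xrp1 RNAi, 18233 to 19129 with ecd RNAi and 18468 to 18776 in the controls. This sum joins rises and falls. Chosen after their values were seen, sls stood at 7144 ± 1359 normalized counts with ecd RNAi and 3167 ± 538 in control. Ama stood at 3391 ± 782 and 5711 ± 410 in the same order. Of 4 tested peripodial markers 3 fell, and the list's 5 markers summed to 4359 to 5650 with ecd plus Xrp1 RNAi, 3183 to 4094 with ecd RNAi and 4533 to 7151 in the controls, and of 13 leg and eye disc markers 3 fell, with sums of 14336 to 17348 with ecd plus Xrp1 RNAi, 10999 to 12576 with ecd RNAi and 13482 to 15981 in the controls. Of 11 hinge genes 6 fell and 2 rose. Doc1 and Doc3 fell most, with log2 changes of -1.05 and -0.75. The 2 that rose were zfh2, by 0.63, and upd1, which encodes a JAK/STAT ligand. upd1 stood at 1299 ± 123 normalized counts with ecd RNAi and 116 ± 21 in control. The hinge genes summed to 77996 to 88461 with ecd plus Xrp1 RNAi, 70811 to 83790 with ecd RNAi and 72506 to 76691 in the controls. Of 10 hemocyte markers 3 fell and 2 rose, with sums of 6227 to 7629 with ecd plus Xrp1 RNAi, 7719 to 8297 with ecd RNAi and 6660 to 7593 in the controls. Named after their values were seen, the 2 that rose were Col4a1 and vkg, with the highest counts of this list under ecd RNAi. They stood at 2035 and 1927 normalized counts with ecd RNAi and at 1304 and 1393 in control. The 3 that fell were eater, crq and srp, at 123, 749 and 39.2 normalized counts with ecd RNAi. In control these 3 stood at 205, 973 and 60.5. The sum of the hemocyte list joins rises and falls. Of 6 tracheal markers 2 fell and 2 rose, and of 8 tested fat body markers 1 fell. Of 8 neuronal markers 0 passed. No marker of these lists was at 0 in a whole group. The part of these tissues in the values of the 10 genes was not tested.

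The nearest gene is given for each of the 10 except sc, among 8269 genes with a mean of at least 50, by the root mean square difference of log2 values, centred per gene, over the 12 libraries. The nearest to ac was ck at 0.0733, to Dll peb at 0.105 and to sens CG4586 at 0.247. The nearest to nub was vvl, another POU-domain gene, at 0.0659, and to ct it was hth, a homeobox gene of the hinge and proximal disc, at 0.0800. For vg, sd, rn and wg the nearest were BuGZ at 0.0496, dsh at 0.0378, sbb at 0.0609 and pho at 0.0415. Among the 10 genes, vg and sd had the smallest distance from each other, at 0.124. The root mean square of a gene's own centred values was 0.195 for vg and 0.140 for sd. Distances are not scaled to this size, so genes that vary little lie near each other. The measure covers all differences between the 12 libraries, within groups and between them.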

How the data were processed

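Total RNA after depletion of ribosomal RNA was sequenced from 12 samples of pooled wing discs with a stranded kit. Groups and replicate numbers come from the sample titles. The labels differ on read layout, which is not taken as known, and no source used here says whether reads were counted by strand. Per the labels, the gene values are normalized counts made by the authors with DESeq2, deposited as a signal that is never negative. The authors' tools, per the submitters' processing notes, were DESeq2 1.34.0, kallisto 0.46.1, cutadapt 3.5 and FastQC, on build BDGP6. Per the file headers, the authors also deposited log2 fold changes and p-values with adjusted p-values, and intron retention as a fraction from 0 to 1 per group. In the intron table the authors' log2 fold change runs control over RNAi, so only ratios and adjusted p-values are printed. Its 12 columns per sample match no sample's label and stayed unused.

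Of 23932 rows, 17869 are genes. The other 6063, with 0.452% to 7.40% of each library's signal, were not tested. Raw counts and read depth were not recovered, since 39.1% to 72.7% of low values per library were whole within 0.03 of a common step, so the tests do not model counts and the precision is that of the spread between 4 libraries. Genes with a mean of at least 10 entered a linear model of log2(value + 1), a scale that understates changes at low levels, with a term per group over all 12 libraries, in limma 3.58.1 under R 4.3.3 (eBayes with a trend, two-sided). Adjusted p-values are by Benjamini and Hochberg over 10179 genes, and a gene passed under 0.05. All p-values are from limma unless the authors' deposited table is named, and ± after a log2 change is the SE. The script was tested on simulated data. Positions are 1-based from the Ensembl annotation of BDGP6, and levels per kb divide by the union of annotated exons.

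The 10 genes and all lists were chosen with earlier results of these data known. Named beside the 10 genes are, per list of wing and sensory organ genes and comparison, up to 2 genes that rose and 2 that fell most among those called whose groups do not overlap and whose mean reaches 50, the nearest gene to each of the 10 (that of sc is not reported here), and ecd and Xrp1. A part of these is described. The log2 deviations from the group means correlated between same-numbered control and ecd RNAi libraries with r of 0.533, 0.412, 0.559 and 0.235, each over 0.1, and the block was fitted on that ground. Libraries of these groups with different numbers correlated as strongly within replicates 1 and 2 (r of 0.572 and 0.474) and within replicates 3 and 4 (0.564 and 0.508), the split by fat body transcripts, so the values do not show pairing by single numbers. Between the ecd plus Xrp1 RNAi libraries and same-numbered libraries of either other group all r were below 0. These are title numbers, and the sample descriptions number the libraries differently in part. By the descriptions, ecd RNAi replicate 1 shares a number with ecd plus Xrp1 RNAi replicate 3 (r of 0.244) and not with control replicate 1. The other matches of the ecd plus Xrp1 RNAi group had r below 0. No block by the description numbers was fitted. Alternatives changed the pseudocount, low filter, scaling, weights, block and libraries.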

Additional observations from a re-analysis of the deposited data

Results flagged for a closer look

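Of 30 sets of 4 libraries (10 genes in 3 groups), 2 had a library far from the other 3, where chance alone gives about 1 in 20. ct in replicate 4 with ecd plus Xrp1 RNAi was the highest of its group at 1880 normalized counts, where the other 3 lay between 1395 and 1456, and the gap to the nearest took 0.873 of the group's range. sens in replicate 1 with ecd RNAi was the highest of its group at 35.7 normalized counts, where the other 3 lay between 18.1 and 19.7, with a gap of 0.904 of the range.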

How the results depend on the processing

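The counts of called genes among the 10 stayed within 1.5 times the main count in most alternatives. With ecd RNAi against control 7 passed, 4 with the fat-rich libraries left out (replicates 3 and 4 of the control and ecd RNAi groups), and 6 to 7 when each library was left out in turn. With ecd plus Xrp1 RNAi relative to ecd RNAi 7 passed, 6 without the fat-rich libraries, 8 without the fat-poor ones and 7 to 8 with each library left out. Without the fat-poor libraries 57.3% of all tested genes passed, 29.8% as higher, against 47.3% in the main fit. With ecd plus Xrp1 RNAi against control 1 passed, 2 with array weights and 2 with only the 2 groups in the fit, sens being the second, and 0 to 1 with each library left out. Over all genes that comparison gave 447 calls, but 737 with quantile normalization, 1486 with array weights, 672 with only the 2 groups and 1752 without the control and ecd RNAi libraries poor in fat body transcripts, which was tried after seeing the data.

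Changes of sign occurred in rn and wg, none of them called. For rn with ecd RNAi against control the change was 0.036 with quantile normalization, 0.035 without the libraries poor in fat body transcripts and -0.14 to 0.039 with each library left out. For wg it was 0.053 with quantile normalization, 0.0063 without the fat-rich libraries and -0.10 to 0.062 with each left out. For wg with ecd plus Xrp1 RNAi relative to ecd RNAi it was -0.046 with quantile normalization, -0.00044 with array weights, -0.055 without the fat-rich libraries and -0.027 to 0.13 with each left out. For wg with ecd plus Xrp1 RNAi against control it was -0.0058 with equal sums, -0.010 with array weights, -0.048 without the fat-rich libraries and -0.0056 to 0.070 with each left out. The cause was not tested.

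With the replicate block the counts were 7, 7 and 1 among the 10, and within the control and ecd RNAi libraries alone 7 (added after seeing the data), so it changed no call of the 10. Of the named list genes, Wnt2 (adjusted p = 0.0626) and kn (0.0762) did not pass under it between ecd plus Xrp1 RNAi and control. Their log2 changes were -0.41 and -0.39, as without the block, and the title numbers do not pair these groups. Each of these calls was lost in 13 of 25 alternatives, so the loss is not particular to the block. Read depth was not recovered, so limits from counting are not given.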
